A study of Mus musculus with 8 samples.

Results

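The mitochondrial carriers of the Slc25 family were examined in whole kidneys of mice that had lost Xpr1, a phosphate exporter, from the nephron. The members are the protein-coding genes of GENCODE vM21 whose symbol starts with Slc25a, with 1 gene of the family left out, which gave 46 of the 46517 genes listed; 41 of them had enough reads to be tested among 15382 tested genes. RNA was sequenced from 4 Control samples, named C10, C11, C13 and C14, and from 4 conditional knockout (cKO) samples, named KO16, KO18, KO19 and KO20. All 8 mice were homozygous for an Xpr1 allele with a floxed exon 2 and, at an age of 8 weeks, received doxycycline in the water (2 mg/ml) over 2 weeks. Only cKO animals had Pax8-rtTA, which places the doxycycline-dependent activator in the renal tubule, together with LC-1, which supplies Cre when that activator is on. Control littermates had neither transgene, so effects of Xpr1 loss, of Cre and of rtTA cannot be told apart. The labels name no litter, pairing or batch.

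Slc25 proteins sit mostly in the mitochondrial inner membrane and exchange metabolites, nucleotides, cofactors and phosphate between the cytosol and the matrix. Phosphate enters the matrix through Slc25a3 for use by ATP synthase, and the ADP/ATP carriers Slc25a4 and Slc25a5 bring ADP in and send ATP out. The ATP-Mg/phosphate carriers, of which Slc25a23, Slc25a24 and Slc25a25 are regulated by calcium and Slc25a41 lacks their calcium-binding domain, change the total adenine nucleotide pool of the matrix, because they swap ATP-Mg for phosphate rather than for ADP. Proximal tubule cells hold many mitochondria and depend on these carriers for ATP production, gluconeogenesis, ammonia formation and amino acid breakdown. Levels below are CPM, read counts scaled to library size with TMM factors, and fold changes are log2 values of cKO against Control with a standard error (SE). Adjusted p-values come from edgeR's quasi-likelihood test with Benjamini-Hochberg adjustment over all tested genes, and a gene is said to rise or fall when this value is under 0.05. In whole-kidney RNA, fewer cells of a type and less RNA per cell cannot be told apart.

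Promoter sequence was at hand for 35 of the 46 members in RefSeq's GRCm38.p6 annotation, and 5 windows are shown here from 250 bases before to 50 bases after the start. They belong to Slc25a3 and to the pair of rising and the pair of falling members with the smallest p among those with a single annotated start. Capitals mark matches, on either strand, to CCGGAAG (GABPA), the NRF1 motif, GGGCGG (SP1) or CCAAT (NFY). Matches that overlap are run together.
Slc25a3 promoter, chr10:91123918-91124217, minus strand: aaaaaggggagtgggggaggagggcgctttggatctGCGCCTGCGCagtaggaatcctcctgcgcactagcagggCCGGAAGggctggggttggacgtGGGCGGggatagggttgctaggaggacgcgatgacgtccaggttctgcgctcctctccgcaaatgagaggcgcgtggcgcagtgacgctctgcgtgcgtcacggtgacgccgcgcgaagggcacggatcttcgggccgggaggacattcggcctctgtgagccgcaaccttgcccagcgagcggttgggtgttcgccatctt
Slc25a24 promoter, chr3:109122899-109123198, plus strand: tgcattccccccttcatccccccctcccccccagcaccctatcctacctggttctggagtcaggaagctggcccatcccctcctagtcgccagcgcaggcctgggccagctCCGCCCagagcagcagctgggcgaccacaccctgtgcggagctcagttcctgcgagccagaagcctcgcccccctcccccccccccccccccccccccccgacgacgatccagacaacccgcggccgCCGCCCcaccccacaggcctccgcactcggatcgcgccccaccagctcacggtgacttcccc
Slc25a47 promoter, chr12:108850879-108851178, plus strand: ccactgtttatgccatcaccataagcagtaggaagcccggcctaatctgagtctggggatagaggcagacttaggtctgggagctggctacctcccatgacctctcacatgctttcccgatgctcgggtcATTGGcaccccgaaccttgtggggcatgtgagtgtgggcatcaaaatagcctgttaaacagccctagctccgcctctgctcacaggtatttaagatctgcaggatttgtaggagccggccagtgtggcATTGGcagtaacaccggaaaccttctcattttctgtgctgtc
Slc25a10 promoter, chr11:120491587-120491886, plus strand: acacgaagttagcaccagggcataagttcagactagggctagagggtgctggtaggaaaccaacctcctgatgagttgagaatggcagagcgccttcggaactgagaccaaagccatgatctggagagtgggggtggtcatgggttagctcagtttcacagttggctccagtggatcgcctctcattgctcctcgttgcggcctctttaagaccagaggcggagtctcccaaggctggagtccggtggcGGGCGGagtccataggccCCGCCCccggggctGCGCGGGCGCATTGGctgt
Slc25a34 promoter, chr4:141623785-141624084, minus strand: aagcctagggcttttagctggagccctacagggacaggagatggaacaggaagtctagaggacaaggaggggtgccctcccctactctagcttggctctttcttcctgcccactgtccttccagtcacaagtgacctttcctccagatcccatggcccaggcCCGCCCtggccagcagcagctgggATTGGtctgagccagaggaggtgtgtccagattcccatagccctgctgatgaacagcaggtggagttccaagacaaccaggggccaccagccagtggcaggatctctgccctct
The 35 members have 45 windows, since 7 of them have more than 1 start. GGGCGG was found in 37 of the 45 (82.2%) and in 35.7% of all 32851 promoter windows in the table. CCAAT was found in 22 of 45 (48.9%, against 37.4% of all windows), CCGGAAG in 6 of 45 (13.3% against 8.86%) and the NRF1 motif in 3 of 45 (6.67% against 6.23%). Of the 8 falling members with a promoter, counting any of their windows, 6 held GGGCGG, 6 held CCAAT and 1 each held CCGGAAG and the NRF1 motif. Counted in the same way, 29 of the 35 members (82.9%) held GGGCGG and 19 (54.3%) held CCAAT. For CCGGAAG and the NRF1 motif the counts were 6 (17.1%) and 3 (8.57%). No member window held TCAAGGTCA (ESRRA), CAAAGTCCA (HNF4A) or the HNF1 motif, which lay in 0.423%, 0.475% and 0.0609% of all windows. The Slc25a3 window held CCGGAAG, the NRF1 motif and GGGCGG once each, the Slc25a24 window held GGGCGG at 2 places and the Slc25a47 window CCAAT at 2 places. These matches describe the letters alone.

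Libraries held 20366113 to 26155030 reads assigned to genes, and the common biological coefficient of variation was 0.386. Xpr1 stood at 80.2, 126, 108 and 103 CPM in C10, C11, C13 and C14, and at 5.74, 26.5, 22 and 12 CPM in KO16, KO18, KO19 and KO20, so each library followed its label. Reads of KO16 and KO20 leaned to short transcripts: the shortest of 6 length classes of genes lay 1.1 and 0.557 above the Control mean (log2) and the longest class at -0.978 and -0.452. A smaller lean to short transcripts was seen in C10 (0.281 and -0.255), whereas C11 (-0.416 and 0.331), KO18 (-0.28 and 0.346) and KO19 (-0.134 and 0.225) leaned to long ones. The share of reads assigned to no gene was highest in KO20 (56.2%) and KO16 (52%) and lowest in C11 (39.7%). Of 12 proximal tubule markers 9 fell and 0 rose, where over all tested genes 6.61% fell and 7.5% rose. None of the markers was at 0 in every library. Their summed level was 42144 to 100411 CPM in Control and 16492 to 49848 CPM in cKO libraries. Most of that sum was Kap, at 25570 to 91253 CPM in Control and 13485 to 46246 CPM in cKO libraries. Kap did not pass (adjusted p = 0.096), so the sum does not give the level of the 9 falling markers. Of 9 macrophage and leukocyte markers 5 rose and 0 fell (126 to 142 against 275 to 995 CPM summed), and of 4 tested injured tubule markers all 4 rose (12.4 to 45.2 against 197 to 589 CPM for the 5 listed). Among these, the calls of Krt20 (injured tubule; adjusted p up to 0.0951 without C14), Cd68 (macrophage; up to 0.0573 without C13), Lrp2 and Slc5a2 (proximal tubule; up to 0.0615 and 0.0772 without KO20) were lost when certain single libraries were left out. Of 5 thick limb, 4 distal convoluted tubule, 5 podocyte and 6 endothelial markers 0 passed. Of 6 collecting duct markers Aqp2 rose and Aqp3 fell, and both calls were lost without C13 (adjusted p = 0.0527 and 0.0594). The call of Aqp3 was also lost without C14, KO19 or KO20 (adjusted p up to 0.0901, without KO20). The part of all these shifts in the carrier results below was not tested.

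Of the 41 tested carriers, 9 fell and 2 rose in cKO kidneys, and 30 did not pass the test. That is 26.8% of the carriers tested, against 14.1% of all tested genes; 22% of the carriers fell, against 6.61% of all genes, and 4.88% rose, against 7.5%. The median log2 fold change was -0.381 over the tested carriers and 0.00664 over all tested genes. Groups did not overlap for 12 carriers (29.3%, against 22.8% of all genes), namely the 11 that passed and Slc25a30. The falling members were Slc25a21, Slc25a10, Slc25a34, Slc25a13, Slc25a15, Slc25a16, Slc25a25, Slc25a42 and Slc25a51, and the rising ones Slc25a24 and Slc25a47. All 11 kept their sign under every alternative scaling, test, filter and set of libraries run. Library totals alone, in place of TMM factors, put the median of all genes at 0.344 and that of the carriers at -0.022, with 6 carriers lower and 2 higher. The plot of fold changes by substrate group shows falling members among carriers of carboxylates, amino acids, cofactors and ATP-Mg/phosphate. Slc25a34, whose substrate is less settled, fell as well.

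**Figure D1:**
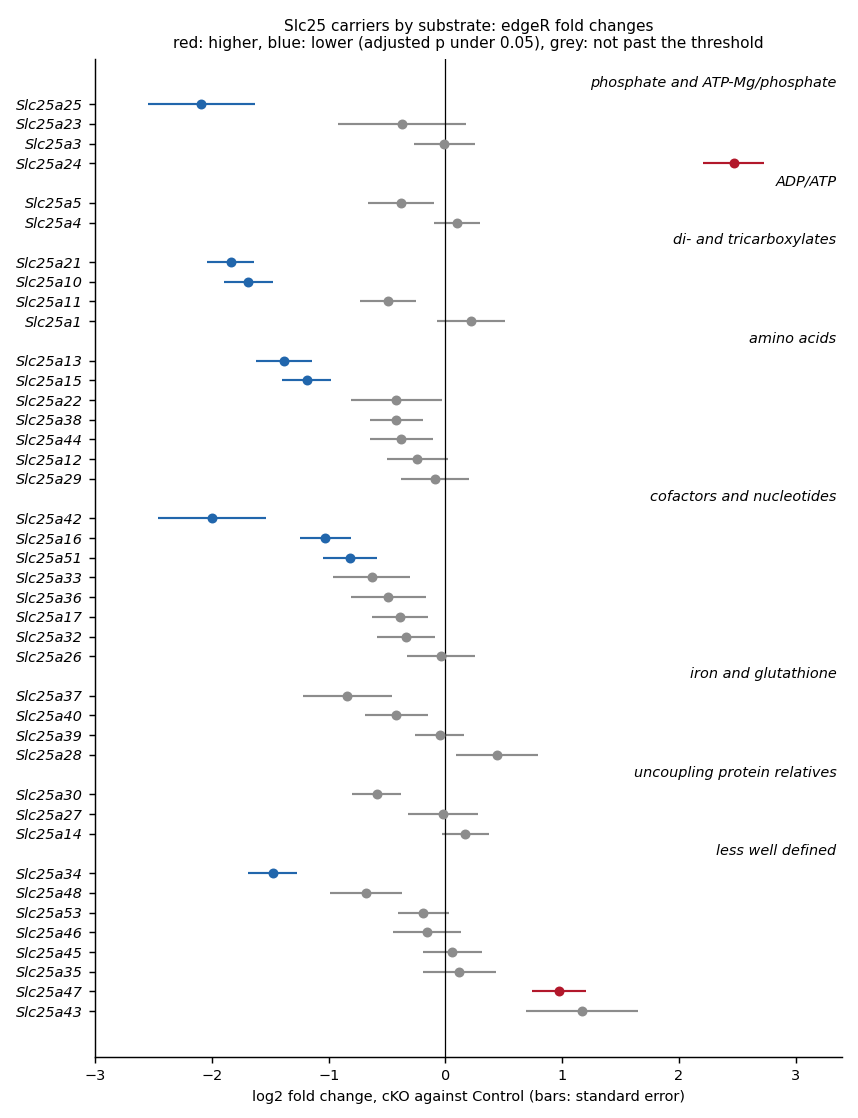
Log2 fold changes (x axis, cKO against Control, bars are SE) of 40 of the 41 tested carriers, grouped by what they carry (y axis). The 9 falling members (blue) lie between -2.09 and -0.82, the rising members Slc25a24 and Slc25a47 (red) at 2.47 and 0.97, and 29 others (grey) between -0.84 and 1.17.

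Per kilobase of exonic length, the most abundant carriers of the Control kidney were Slc25a5 (562 ± 66 CPM per kb, SD, n = 4), Slc25a39, a mitochondrial glutathione carrier (218 ± 8.64), Slc25a4 (151 ± 16.4), Slc25a3 (142 ± 15) and Slc25a10 (102 ± 17.1). By this length, Slc25a3 and Slc25a4 differed by less than their spread, as did Slc25a10 and Slc25a11 (99.6 ± 8.28). The same 4 leading genes kept ranks 1 to 4 in cKO kidneys, whereas Slc25a10 went from rank 5 to rank 8 and Slc25a42 from rank 16 to rank 29. Slc25a24 moved the other way, from rank 36 to rank 21. Exonic length here is the union over all annotated transcripts, 5550 bp for Slc25a3, whose longest protein-coding transcript has 1612 bp, so its level per kb is understated. For Slc25a4 the lengths are 2353 and 1925 bp, for Slc25a10 3455 and 2023 bp, and for Slc25a11 2120 and 1711 bp. The order of these carriers and the 2 close pairs thus depend on the length used. Slc25a5 can be understated too: 46.6% of the 50-base windows of its transcript recur in transcripts of 9 other genes, and reads with several alignments were not assigned. For the 41 tested members other than Slc25a5, Slc25a35 (25.8%), Slc25a33 (12.6%), Slc25a36 (11.8%) and Slc25a40 (10.3%), this share was under 10%.

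Slc25a3, the mitochondrial phosphate carrier (ENSMUSG00000061904, minus strand of chromosome 10, 91116574 to 91124059 in GRCm38), did not pass the test. It stood at 900, 699, 791 and 772 CPM in C10, C11, C13 and C14 and at 1168, 628, 650 and 690 CPM in KO16, KO18, KO19 and KO20. KO16 was above every Control library and the other cKO libraries were below all Control libraries. The means were 791 ± 83.3 and 784 ± 257 CPM (SD, n = 4 each), and the log2 difference was -0.01 (SE 0.26, adjusted p = 0.983). Without KO16 the value was -0.27 (adjusted p = 0.287), and with KO16, KO20 and C11 all left out it was -0.40. That setting sets 3 Control libraries against the 2 cKO libraries most alike each other, and 57.8% of all tested genes pass in it, so its p-values are conditioned on the spread removed. The sign turned to 0.28 with library totals alone and to 0.17 with the length trend removed, so no direction is given for this gene.

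The ATP-Mg/phosphate carriers moved apart. Slc25a24, known as SCaMC-1, had 6.32, 8.02, 5.04 and 4.79 CPM in C10, C11, C13 and C14 and 25.1, 32.5, 35.1 and 41.8 CPM in KO16, KO18, KO19 and KO20. Every cKO library was above every Control library, and the mean was 5.56 times as high (6.04 ± 1.48 against 33.6 ± 6.91 CPM). It rose by 2.47 (log2; SE 0.26, adjusted p = 0.000699) and had the smallest p of the family. Slc25a25, known as SCaMC-2, was at 178, 68.3, 114 and 92.4 CPM in the Control libraries and at 11.9, 45.7, 31.6 and 17.3 CPM in the cKO libraries, in the same order. Its groups did not overlap, although C11 and KO18 came near each other; it fell by 2.09 (log2, SE 0.46, adjusted p = 0.0167; adjusted p = 0.0521 without KO20).

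Slc25a23, known as SCaMC-3, gave no direction. Its libraries held 45.4, 148, 55.7 and 55.1 CPM in Control and 24.5, 99.3, 85.7 and 26.7 CPM in cKO kidneys. The highest libraries were C11, KO18 and KO19 and the lowest KO16 and KO20, so the spread within a group exceeded the difference between them (log2 fold change -0.37, SE 0.55, adjusted p = 0.73). Without C11 the value was 0.18 (adjusted p = 0.871), and without KO16, KO20 and C11 it was 0.79. Slc25a41 had 1, 0, 0 and 0 reads in C10, C11, C13 and C14 and 2, 1, 1 and 1 reads in KO16, KO18, KO19 and KO20, and Slc25a54, a relative of this group, had 0 reads among 195585713, which allows up to 0.0153 CPM over the 8 libraries.

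The balance within this group, chosen for description after its values were seen, does not rest on scaling factors. Per kb, Slc25a24 made up 5.56%, 5.99%, 5.55% and 5.92% of the summed level of the 4 ATP-Mg/phosphate carriers in C10, C11, C13 and C14. The share was 54%, 27.8%, 33.6% and 62.6% in KO16, KO18, KO19 and KO20. It was higher in KO16 and KO20, the libraries that leaned to short transcripts. Between KO16 with KO20 and KO18 with KO19, Slc25a24 differed by -0.06 (log2), Slc25a23 by -1.85 and Slc25a25 by -1.40. The part of the length lean in the share was not tested. Slc25a25 went from 22.3% to 68.4% of the sum in Control to 11.2% to 17% in cKO libraries. The summed level itself overlapped, at 23.6 to 39 CPM per kb in Control and 13.5 to 34.1 CPM per kb in cKO libraries. With the longest coding transcript as length (3529 bp for Slc25a25 and 3362 bp for Slc25a23 in place of 7862 and 5294 bp), an alternative chosen after seeing the data, the Slc25a24 share was 2.8% to 3.56% in Control and 18.2% to 48.6% in cKO libraries. The size of the share thus depends on the length used, while the groups stayed apart. With either length, the makeup of the group differed in every cKO library while its sum did not separate the groups.

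**Figure D2:**
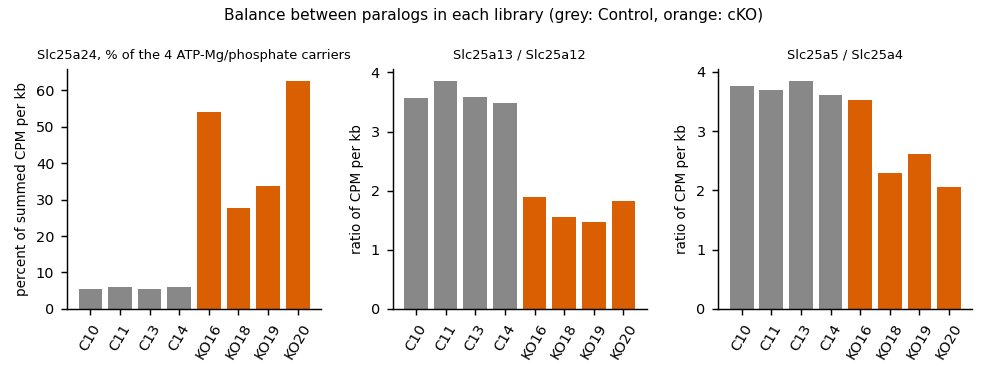
Bars give, for each library (x axis; grey, Control; orange, cKO), the share of Slc25a24 in the summed CPM per kb of Slc25a23, Slc25a24, Slc25a25 and Slc25a41 (left, percent) and the ratios Slc25a13 to Slc25a12 (middle) and Slc25a5 to Slc25a4 (right). The cKO bars lie apart from all Control bars in each panel, at 27.8% to 62.6% against 5.55% to 5.99% for Slc25a24. In the right panel the gap is narrow, with KO16 at 3.53 and the lowest Control bar, C14, at 3.61.

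Neither of the tested ADP/ATP carriers passed the test by edgeR, DESeq2 or limma-voom, and 0 of them had an unadjusted p under 0.05. Slc25a4, the heart and muscle type ANT1, was at 402, 307, 354 and 356 CPM in C10, C11, C13 and C14 and at 459, 337, 332 and 395 CPM in KO16, KO18, KO19 and KO20, and the groups overlapped (log2 fold change 0.10, SE 0.20, adjusted p = 0.802). Its value was -0.04 with the length trend removed and -0.09 without KO16 and KO20. Slc25a5, the widely expressed ANT2, was at 1056, 795, 951 and 900 CPM in the Control and at 1132, 539, 607 and 566 CPM in the cKO libraries. KO16 was the highest of all 8 libraries and the other cKO libraries were the lowest. The log2 difference was -0.38 (SE 0.28, adjusted p = 0.44), and it was -0.70 (adjusted p = 0.021) without KO16 and -0.67 (adjusted p = 0.0449) with the length trend removed. The ratio of Slc25a5 to Slc25a4 per kb was 3.61 to 3.85 in Control libraries and 3.53, 2.29, 2.61 and 2.05 in KO16, KO18, KO19 and KO20. This ratio was not planned beforehand, and KO16 came near the Control range. Slc25a31, the testis type carrier, had 2 reads in Control and 13 in cKO libraries.

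**Figure D3:**
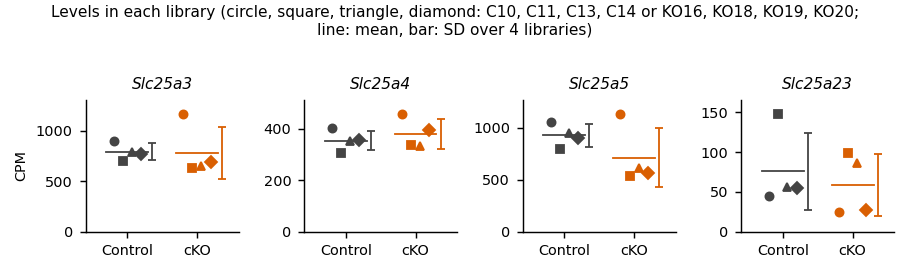
CPM in each library (y axis, from 0; points are libraries, lines are means and bars SD, n = 4) of the phosphate carrier Slc25a3, the ADP/ATP carriers Slc25a4 and Slc25a5 and the ATP-Mg/phosphate carrier Slc25a23. KO16 is the highest cKO point for Slc25a3 (1168 CPM), Slc25a4 and Slc25a5 (1132 CPM), and C11 (148 CPM) stands above the other Control points for Slc25a23.

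Of the 4 carriers of di- and tricarboxylates 2 fell (50%, against 22% of all tested carriers and 6.61% of all tested genes). Slc25a10, the dicarboxylate carrier, exchanges malate and succinate for phosphate. It had 312, 438, 351 and 313 CPM in C10, C11, C13 and C14 and 130, 111, 107 and 89.9 CPM in KO16, KO18, KO19 and KO20, and the lowest Control library lay far above the highest cKO library. The mean was 3.23 times as high in Control kidneys (354 ± 59.1 against 110 ± 16.3 CPM), and the gene fell by 1.69 (log2, SE 0.21, adjusted p = 0.00146). Slc25a21, the oxodicarboxylate carrier of lysine and tryptophan breakdown, fell by 1.84 (SE 0.20, adjusted p = 0.00081), from 23.5, 21.5, 18 and 19.7 CPM to 5.37, 6.72, 5.94 and 5.02 CPM. Both groups were tight for this gene. Slc25a11, the 2-oxoglutarate/malate carrier, had a value of -0.49 (log2, adjusted p = 0.233; -0.71 and 0.0237 without KO16), with KO16 at 215 CPM inside the Control range of 186 to 227 CPM and the others at 116 to 154 CPM. Slc25a1, the citrate carrier, was at 108 to 126 CPM in Control and at 227, 90, 105 and 136 CPM in the cKO libraries, on both sides of the Control range.

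Of the 7 tested amino acid carriers 2 fell (28.6%, against 22% of all tested carriers and 6.61% of all tested genes) and 0 rose. Slc25a13, the aspartate/glutamate carrier AGC2 of the malate-aspartate shuttle and of urea synthesis, was at 113, 174, 126 and 115 CPM in C10, C11, C13 and C14 and at 46, 60.3, 57.8 and 38.3 CPM in KO16, KO18, KO19 and KO20. It fell by 1.38 (log2, SE 0.24, adjusted p = 0.00549). Its paralog Slc25a12, AGC1, overlapped between groups at 61.5 to 87.4 and 40.4 to 75.8 CPM (-0.24, SE 0.26, adjusted p = 0.619). The ratio of Slc25a13 to Slc25a12 per kb was 3.49 to 3.86 in Control and 1.47 to 1.89 in cKO libraries, a comparison chosen after the values were seen.

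Slc25a15, the ornithine/citrulline carrier, fell by 1.19 (SE 0.21, adjusted p = 0.00578), from 221, 172, 217 and 215 CPM to 70.4, 98.5, 106 and 86 CPM, and C11 was the lowest Control library. The other tested members of this group did not pass. Slc25a38, the glycine carrier of heme synthesis, had a value of -0.42 (adjusted p = 0.277), the glutamate carrier Slc25a22 -0.42 (0.54), the branched-chain amino acid carrier Slc25a44 -0.38 (0.407), and the basic amino acid carrier Slc25a29 had 2.22 to 3.85 and 1.98 to 3.93 CPM. The glutamate carrier Slc25a18 and the ornithine carrier Slc25a2 had 22 and 21 reads in all and were not tested.

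Of 9 carriers of cofactors and nucleotides 3 fell (33.3%, against 22% of all tested carriers and 6.61% of all tested genes) and 0 rose. Slc25a42, which imports coenzyme A, had 52.3, 172, 89.1 and 76.4 CPM in C10, C11, C13 and C14 and 12.7, 37.1, 31.7 and 15.6 CPM in KO16, KO18, KO19 and KO20. It varied widely within groups, with C11 the highest of all, and still fell by 2.00 (SE 0.46, adjusted p = 0.0206; 0.052 without C13, 0.063 without KO20 and 0.0634 with library totals). Without KO16 and KO20 it stood at -1.51 (adjusted p = 0.0754), and at -1.12 when C11 was also left out. Slc25a16, linked to mitochondrial coenzyme A, fell by 1.03 (SE 0.22, adjusted p = 0.0143; 0.0548 without C13, 0.0506 without C14 and 0.0952 with library totals), from 212, 174, 205 and 201 CPM to 67.4, 102, 102 and 117 CPM.

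Slc25a51, the mitochondrial NAD importer, fell by 0.82 (SE 0.23, adjusted p = 0.0452), from 220, 227, 257 and 235 CPM to 89.6, 162, 160 and 119 CPM. Its call was lost when C10, C11, C13, C14, KO19 or KO20 was left out, with adjusted p-values up to 0.137, and under other scalings (0.0672 with upper-quartile factors and 0.325 with library totals) or no filter on low counts (0.0686). The pyrimidine nucleotide carriers Slc25a33 and Slc25a36 had values of -0.63 (adjusted p = 0.255) and -0.49 (0.368), and Slc25a17, the peroxisomal cofactor carrier, -0.39 (0.335). Without KO16, where it stood at 14.1 CPM against 5.21 to 8.27 CPM in the other cKO libraries, Slc25a33 passed as lower (adjusted p = 0.0218).

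Of the 3 relatives of uncoupling proteins none passed by edgeR; 1 had an unadjusted p under 0.05 and 1 passed by DESeq2, Slc25a30 in each case. Slc25a30, called kidney mitochondrial carrier protein for its tissue, was at 80.2, 51.3, 63.4 and 78.1 CPM in C10, C11, C13 and C14 and at 37.9, 50.3, 46.1 and 46.7 CPM in KO16, KO18, KO19 and KO20. Its groups met almost at C11 and KO18 (-0.59, SE 0.21, adjusted p = 0.102; -0.61 and 0.0297 by DESeq2). Of the 4 iron and glutathione carriers 0 passed by edgeR, DESeq2 or limma-voom, and 0 had an unadjusted p under 0.05. Slc25a37, the iron importer mitoferrin-1 of red cell precursors, had 34.1 to 63.2 CPM in Control and 11.2 to 38.5 CPM in cKO libraries (-0.84, adjusted p = 0.197). Of 6 tested erythroid markers 0 passed, with 4 values below 0 and 2 above and a median of -0.294; the list summed to 236 to 320 CPM in Control and 121 to 711 CPM in cKO libraries, and its part in the Slc25a37 value was not tested. Slc25a28, mitoferrin-2, was at 38.7 to 51.7 CPM in Control libraries and at 117, 39.3, 42.6 and 55.4 CPM in KO16, KO18, KO19 and KO20.

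Members with less settled substrates held a falling and a rising gene. Slc25a34 fell by 1.48 (SE 0.21, adjusted p = 0.00215), from 35.4, 35.7, 42.5 and 42.1 CPM in C10, C11, C13 and C14 to 12.3, 15.4, 11.6 and 16.5 CPM in KO16, KO18, KO19 and KO20, with little spread in either group. Slc25a47, a carrier best known from the liver, rose by 0.97 (SE 0.23, adjusted p = 0.0226) from a low level of 1.21, 1.4, 1.48 and 1.11 CPM to 2.82, 2.24, 2.73 and 2.45 CPM. It rests on 119 reads over the Control and 271 over the cKO libraries, and the call was lost without C10 (0.0771), C13 (0.0655), C14 (0.0959) or KO19 (0.0623), and with no filter on low counts (0.073). Slc25a48 had a value of -0.68 (adjusted p = 0.189), at 22.6 to 45.5 CPM in Control and 12.9 to 26.8 CPM in cKO libraries.

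**Figure D4:**
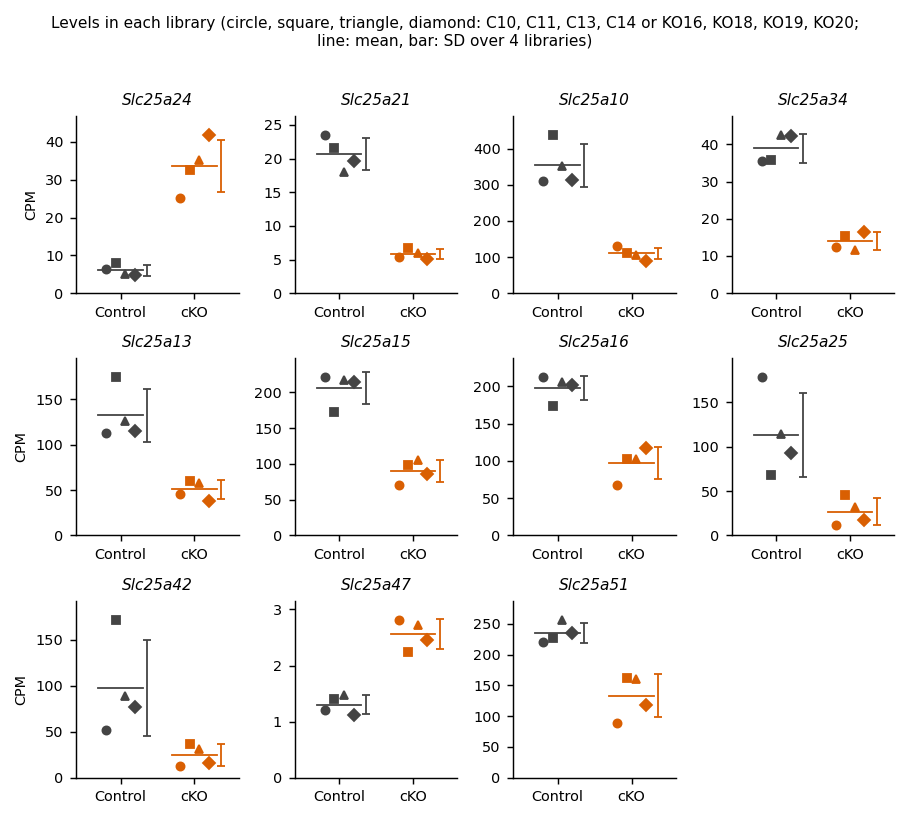
CPM in each library (y axes, from 0; points are libraries, lines are means and bars SD, n = 4) of the 11 carriers that passed the test, in order of p. The groups do not overlap in any panel, and they come near each other for Slc25a51, where the lowest Control point (220 CPM) lies above the highest cKO point (162 CPM).

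The length lean of the libraries was seen in the carriers as in all genes. The mean of KO16 and KO20 minus that of KO18 and KO19 (log2) had a median of 0.45 over the 13 shortest tested members (1646 to 2847 bp) and of -0.56 over the 13 longest (5425 to 9594 bp). Across the 41 members this difference had a Spearman correlation of -0.63 with exonic length, and across 15339 tested genes with a length it was -0.62; the libraries were paired after their lean over all genes was known, so this describes that split. The difference was -1.85 for Slc25a23, -1.40 for Slc25a25, and positive for Slc25a28 (0.97) and Slc25a33 (0.96). Without KO16, KO20 and C11, 29 of the 41 carriers passed (25 lower and 4 higher; 70.7%, against 57.8% of all tested genes), among them the same 11, and the median was -0.38.

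**Figure D5:**
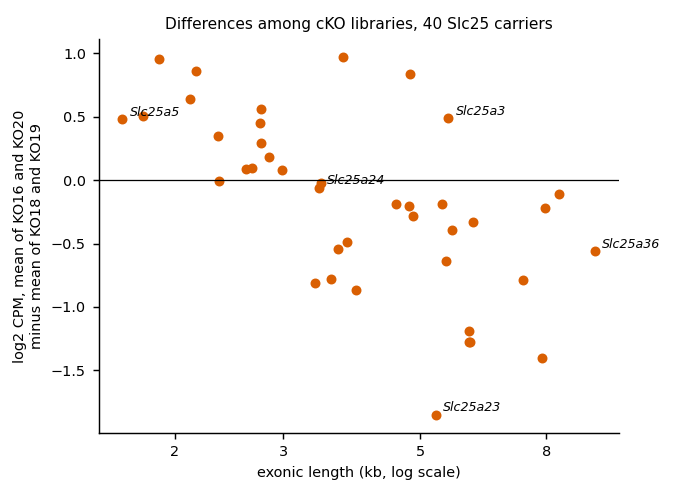
Each point is 1 of 40 tested carriers, with its exonic length (x axis, kb, log scale) and the difference of mean log2 CPM between KO16 with KO20 and KO18 with KO19 (y axis). Over all 41, the 13 shortest members have a median of 0.45 and the 13 longest of -0.56, and Slc25a23 is the lowest point (-1.85).

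Carriers of the same fold under other names were read from the same fit. Of 5 such genes 2 rose (40%, against 7.5% of all tested genes), 0 fell and 3 did not pass. Ucp2, an uncoupling protein that also exports carboxylates, rose by 1.61 (SE 0.24, adjusted p = 0.00286), from 40, 59.9, 46.8 and 48.2 CPM in C10, C11, C13 and C14 to 205, 136, 121 and 132 CPM in KO16, KO18, KO19 and KO20. Ucp3 rose by 2.74 (SE 0.45, adjusted p = 0.00435), from 0.394 ± 0.216 to 2.65 ± 0.784 CPM. Ucp1, the brown fat protein, was at 28.5, 1.56, 4.04 and 21.1 CPM and at 104, 2.11, 10.1 and 74.3 CPM in the same order (1.78, SE 1.16, adjusted p = 0.371). The libraries high in Ucp1 (C10, C14, KO16 and KO20) were also those highest within their group for the fat genes Cidea (4.29, 4.34, 29.5 and 15.1 CPM) and Adipoq (3.95, 3.1, 25.8 and 25.3 CPM). Of 6 tested genes on the fat list, which holds Ucp1, 0 passed and 6 had values above 0. Lep, at 0.288 CPM or less, was not tested and did not follow this order. C10, KO16 and KO20 also leaned to short transcripts. The outer membrane relatives Mtch1 and Mtch2 had values of 0.48 (adjusted p = 0.338) and -0.21 (0.655).

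The machinery that inserts carriers into the inner membrane, and other mitochondrial genes, were given by lists. Over all tested genes 14.1% passed, with 6.61% lower and 7.5% higher. Of 12 genes of the carrier import route, such as Timm22, Timm9, Timm10 and Tomm70a, 0 passed by edgeR and 0 by limma-voom, 2 passed by DESeq2, and 2 had an unadjusted p under 0.05, both lower; the median was -0.113. Of 18 other transport genes of the inner membrane 3 fell (16.7%), 1 rose (5.56%) and 14 did not pass. Sfxn1, the serine importer, fell to 131 ± 21.5 from 286 ± 13 CPM (-1.13, adjusted p = 0.00597), and Sfxn2 and Sfxn5 of the same family had values of -1.02 (adjusted p = 0.0224; up to 0.063 without C13 and over 0.05 also without C10, C14 or KO20) and -1.10 (0.0466; up to 0.122, the call lost on leaving out each library in turn except KO18). Mcub, the inhibitory subunit of the calcium uniporter, rose to 4.31 ± 2.36 from 0.849 ± 0.164 CPM (2.33, adjusted p = 0.00865).

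Among 18 tested enzymes that work on the carriers' substrates, 7 fell (38.9%, against 6.61% of all tested genes), 0 rose and 11 did not pass. Those with the smallest p were Ass1, argininosuccinate synthase, at 1179 ± 85.5 and 185 ± 81.9 CPM (-2.67, adjusted p = 0.00119), Gatm, which forms ornithine in creatine synthesis, at 973 ± 115 and 231 ± 91.3 CPM (-2.07, adjusted p = 0.0024), and Asl, argininosuccinate lyase, at 207 ± 24.1 and 62 ± 21.9 CPM (-1.74, adjusted p = 0.00339). Idh2, the mitochondrial NADP-dependent isocitrate dehydrogenase, fell by 1.05 (adjusted p = 0.0062). The other 3 that fell, Shmt2, Glud1 and Bckdha, each lost the call without KO20 (adjusted p = 0.0591, 0.109 and 0.197), the last pair also without C10, C11, C13, C14 or KO19 and Bckdha without KO18. Oat, ornithine aminotransferase, was at 133 to 159 CPM in Control and 173 to 260 CPM in cKO libraries, without overlap, and did not pass (0.57, adjusted p = 0.0937). Groups did not overlap for 22.8% of all tested genes. The shuttle enzymes Got1, Got2, Mdh1 and Mdh2 had values of -0.10, 0.05, -0.26 and -0.04 (adjusted p = 0.833, 0.919, 0.611 and 0.941). Of 17 genes that track mitochondrial mass and upkeep 2 fell (Hspd1, a matrix chaperone, by 1.29, and Timm44 by 0.58) and 15 did not pass. That is 11.8%, against 14.1% of all tested genes called and 6.61% called lower, and the median was -0.353. The call of Timm44 (adjusted p = 0.0493) was lost on leaving out each library in turn except KO16. Of 6 regulators of mitochondrial genes 1 passed (16.7%, against 14.1% of all tested genes). Ppara, the fatty acid-sensing receptor, fell by 1.97 (SE 0.45, adjusted p = 0.019), and Ppargc1a (-0.58, adjusted p = 0.347), Ppargc1b, Esrra, Nrf1 and Gabpa did not pass.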

How the data were processed

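Raw counts of reads per Ensembl gene were deposited by the authors, 1 library per sample; the submitters' processing notes name cutadapt 1.3, STAR 2.4.0g, HTSeq 0.6.1 and the build GRCm38. A stranded mRNA kit was used on 500 ng of RNA, per the labels' protocols. No source used here gives the annotation release or strand setting, so overlapping and antisense genes may share reads. Lines that name no gene (39.7% to 56.2% of each file) were left out. Symbols, positions and lengths came from GENCODE vM21 (46005 of 46517 identifiers matched).

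Counts were tested with edgeR 4.0.16 in R 4.3.3 (TMM factors, filterByExpr with minimum count 10 and minimum total 15, quasi-likelihood F test, no covariates), after a check on simulated data. SE was derived from the F statistic; log2 CPM used a prior count of 2. Alternatives used DESeq2 1.42.0, limma 3.58.1, other scalings and filters, a removed length trend and left-out libraries. No replicate numbers are shared; the titles number each library and say no more of its origin, and p-values reflect the spread between these 8 libraries. The members and lists were chosen with earlier results of these data known. Values in every library are given for the phosphate, ATP-Mg/phosphate and abundant ADP/ATP carriers and for each member that passed, and other list genes by smallest p; others named were chosen after their values were seen. Counts and medians cover all members, but the values of 1 tested member are not reported here. Protein sequences were not used here. Promoter sequences are RefSeq's (GRCm38.p6).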

Additional observations from a re-analysis of the deposited data

Results flagged for a closer look

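Within groups of 4 libraries, 6 of 82 groups of carrier values held a library far from the other members of its group, by Dixon's criterion at the 95% level, which chance meets in about 1 of 20 groups. In KO16, Slc25a3 was at 1168 CPM against 628 to 690 CPM in the other cKO libraries, and Slc25a5 at 1132 CPM against 539 to 607 CPM. In C11, Slc25a15 was at 172 CPM against 215 to 221 CPM in the other Control libraries, Slc25a23 at 148 CPM against 45.4 to 55.7 CPM, and Slc25a35 at 26.8 CPM against 11.5 to 13.3 CPM. In C10, Slc25a53 was at 4.1 CPM against 3.26 to 3.37 CPM.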

How the results depend on the processing

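Without a single library, the number of carriers called lay between 7 (without C13) and 14 (without KO16), with 6 to 12 lower and 1 to 2 higher, against 1106 to 2697 genes in all (531 to 1363 higher and 566 to 1334 lower). Of the 11 carriers called, 11 were kept without KO16 or KO18, 10 without C11, 9 without C10 or KO19, 8 without C14 or KO20 and 7 without C13. With 1154 higher and 1016 lower genes as reported, the split moved to 2374 and 548 with library totals alone and to 1460 and 826 with upper-quartile factors; 10 and 5 of the 41 carriers then changed sign. DESeq2, run without the filter of the main test, gave 3267 genes (1764 higher), of which 12 were carriers. The 3267 genes are 12.5% of those in that fit, against 14.1% by edgeR. Of the 15382 genes tested by edgeR, 2979 passed by DESeq2. With edgeR and no filter on low counts, 1 carrier was higher. Without KO16, KO20 and C11, 9175 genes (4689 higher and 4486 lower) and 29 carriers (4 higher and 25 lower) passed. This setting keeps the 2 cKO libraries most alike each other, so its counts are conditioned on the spread removed. The median over the carriers lay between -0.406 and -0.208 without a single library.

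Of the carriers with a fold change in the text, those whose sign turned had not passed. Slc25a3 went to 0.02 with RLE factors, 0.14 with upper-quartile factors, 0.28 with library totals, 0.01 with a mean of at least 1 CPM and 0.17 with the length trend removed, and lay between -0.27 and 0.15 without a single library. Slc25a23 went to 0.02 with library totals, 0.28 without KO16 and KO20 and 0.79 without KO16, KO20 and C11, and lay between -0.74 and 0.18 without a single library. Slc25a12 went to 0.13 with library totals, 0.10 without KO16 and KO20 and 0.19 without C11 as well. Slc25a4 went to -0.04 with the length trend removed, and to -0.09 and -0.19 without those libraries. Slc25a22 went to 0.04 and 0.32 and Slc25a44 to 0.04, the latter without KO16, KO20 and C11. Lowly expressed members are limited by depth: 5 of 46 carriers had 0 to 22 reads in all. No paired analysis was possible because the labels give the groups no shared numbers.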
